A study of Homo sapiens with 8 samples.

Results

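The comparison of the G2 and SCR lines asked which genes differ in expression between SH-SY5Y cells that received Cas9 with a guide targeting PRPF40B (G2) and cells that went through the same procedure with a control guide (scramble, SCR). SH-SY5Y is a human neuroblastoma line with features of noradrenergic neuron precursors. Polyadenylated RNA was sequenced in 3 G2 libraries and 3 SCR libraries, and 2 libraries of the unedited line (WT) served as a reference. Both edited lines were kept in puromycin, for which WT has no listed treatment. The guide-treated cells were plated by limiting dilution after puromycin selection, so G2 is a line grown from a colony. Whether SCR is also a single clone is not given in the sources used here, and differences between clones cannot be told apart from the edit. No drug, differentiation or time course entered this experiment, and nothing in the labels ties a G2 library to an SCR library. The members of the comparison are the 18977 genes, of the 47591 in the table, whose normalized counts averaged 10 or more in the 6 G2 and SCR libraries. Recovered library totals ran from 59804395 to 81080747 counts, a unit smaller than a fragment, so they overstate the number of fragments.

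PRPF40B is a homologue of the yeast U1 snRNP protein Prp40, with WW and FF domains, and joins the 5′ splice site complex at an early step of spliceosome assembly. Neuroblastoma cells move between an adrenergic state, held by transcription factors of the sympathetic lineage, and a mesenchymal state that resembles neural crest cells, and the gene groups are given in order from this identity to signals, stress responses, membrane proteins and nuclear machinery. Genes of the extracellular matrix, the synapse and the ribosome were set apart in a list of their own.

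The target gene, PRPF40B (GSHG0009006; hg38 chromosome 12, 49623561 to 49644666), had 840, 841 and 918 normalized counts in G2, 1686, 1672 and 1670 in SCR, and 1972 and 1668 in WT. All G2 libraries lay below all SCR and WT libraries, at 0.517 of the SCR mean, so the transcript was lower and not absent (log2 fold change -0.95, SE 0.06, adjusted p = 5e-08, limma with Benjamini-Hochberg adjustment).

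Differentially expressed (DE) genes were those with a limma adjusted p of at most 0.05 and a 1.5-fold or larger difference, on log2(normalized count + 1). This scale understates the change of weakly expressed genes, and gene length does not enter the values, so levels are compared between lines within a gene and not between genes. In G2/SCR, 4956 of 18977 genes (26.1%) were DE, 2870 higher in G2 (15.1%) and 2086 lower (11.0%). Of the DE genes 57.9% were higher in G2, and 49.1% of 5123 with all libraries scaled to the same total, which moved the median log2 fold change of all genes from -0.01 to -0.10. These shares are the background for every count of list members. In 11772 of the 18977 genes (62.0%) the G2 and SCR libraries did not overlap, with 32.0% higher in G2 and 30.0% lower. Separation of the libraries was therefore the usual state of a tested gene. The median absolute log2 fold change of the DE genes was 1.15, and 1098 of them differed by more than 4-fold. Of the 222 genes that differed by more than 16-fold, 171 were higher in G2. In bulk RNA, fewer cells of a kind and less RNA per cell cannot be told apart, and the p-values measure the spread between libraries of a line, which may be technical.

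The WT libraries were used to see which line had moved. Among the 2870 genes higher in G2, the WT mean lay nearer to SCR for 2433 (84.8%) and nearer to G2 for 437. Among the 2086 genes lower in G2, it lay nearer to SCR for 1343 (64.4%) and nearer to G2 for 743, a larger part than among the higher genes. In a limma fit of all 8 libraries with the same thresholds, 943 of the lower and 704 of the higher genes were not DE in G2/WT. SCR was called above WT for 500 of the lower genes and below WT for 318 of the higher ones. In all, 2608 tested genes (13.7%) were DE in SCR/WT and 5373 (28.3%) in G2/WT. Over all tested genes WT was nearer to SCR for 62.7%. These positions rest on the same SCR and G2 libraries as the calls and were not tested. The WT libraries also differed from each other more than any pair of G2 or SCR libraries did. With all libraries scaled to the same total, the higher genes with WT nearer to G2 numbered 231 in place of 437, and the lower ones 1037 in place of 743. Normalized totals per library differed between the lines, at 65009984 to 65484633 in G2, 61135884 to 61342140 in SCR and 71294311 to 77225106 in WT.

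The 58 gene lists with tested members hold 3205 of the tested genes. In 36 lists more members were higher than lower, in 18 more were lower, and in 3 no member was DE. Each list count of 0 given for limma was also 0 at an unadjusted p of at most 0.05 and with edgeR and DESeq2 on the recovered counts. A signed value in parentheses after a gene is its log2 fold change in G2/SCR, and a gene that did not pass missed the fold or the p threshold.

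**Figure D1:**
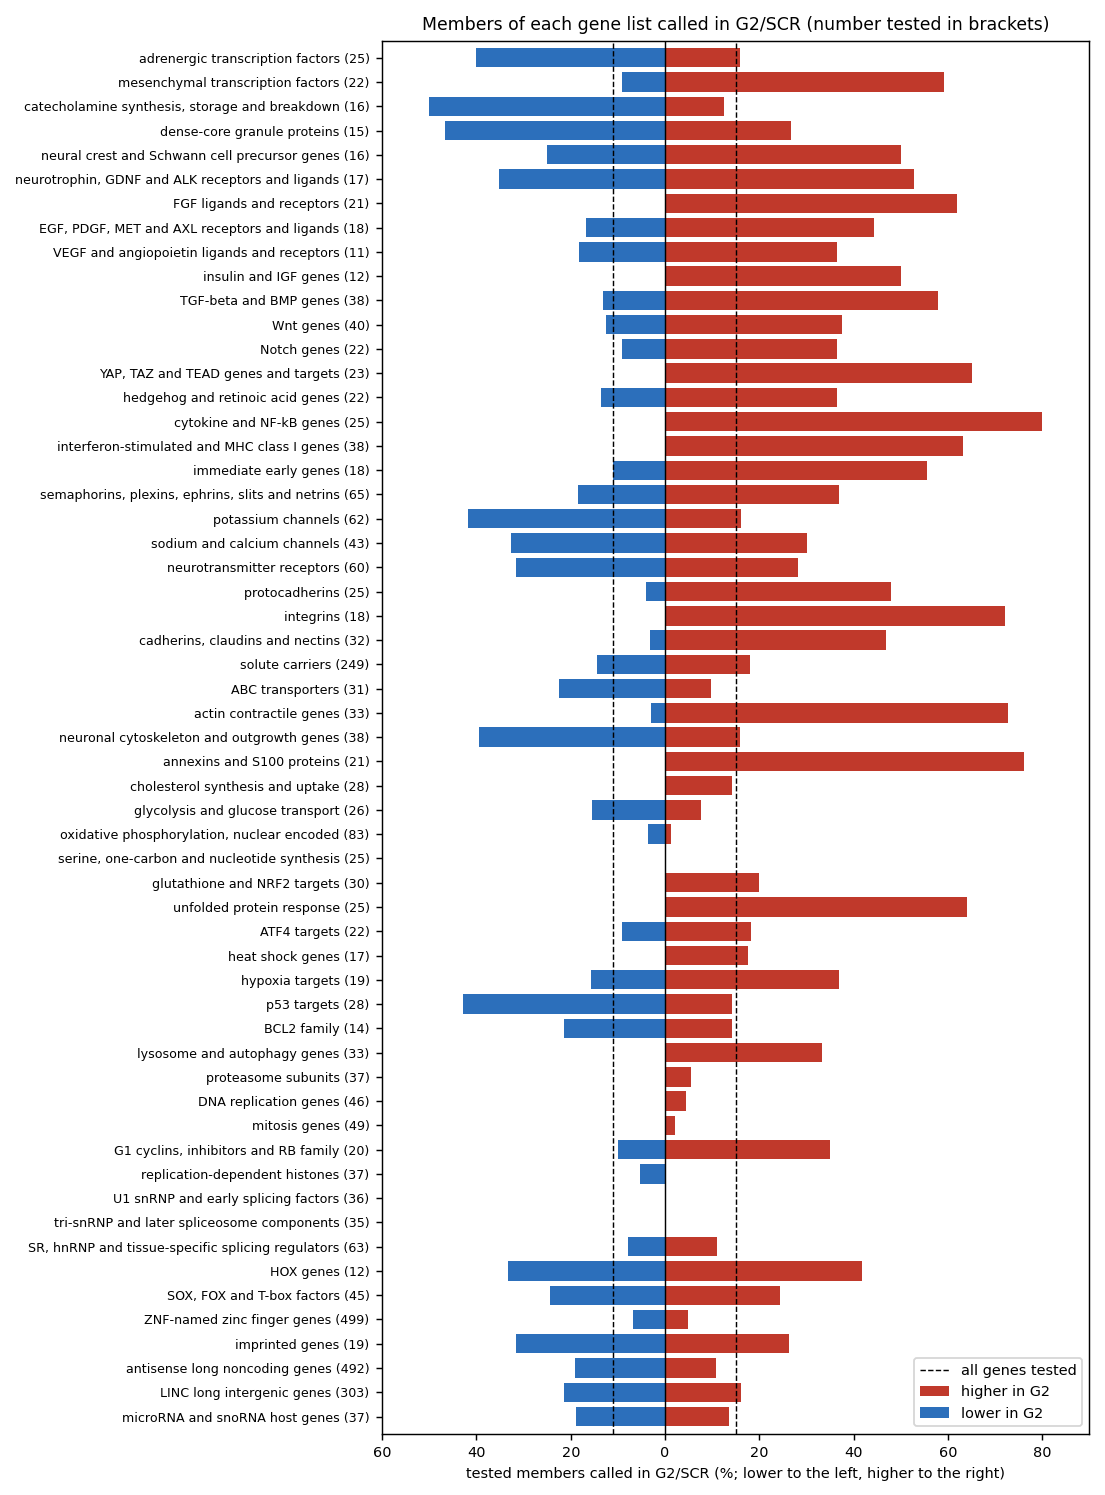
Percentage of the tested members of each gene list shown that were DE in G2/SCR, with members higher in G2 drawn to the right and members lower to the left. Dashed lines mark the share among all tested genes, 15.1% higher and 11.0% lower. Bars of the cytokine, annexin, actin and integrin lists reach furthest to the right, while the spliceosome, proteasome, replication and mitosis lists stay inside the lines.

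Among transcription factors of sympathetic neuron identity, more were lower than higher in G2, but the list was mixed. Its log2 fold changes ran from -1.39 to 3.46, and 8 members lay above 0. Of 25 adrenergic transcription factors, 10 were lower and 4 higher (median log2 fold change -0.42, against -0.01 over all tested genes), and WT was nearer to SCR for all 14. ISL1, a LIM homeodomain factor of sympathetic and motor neurons, had 2578, 2641 and 2602 normalized counts in G2, 6876, 6718 and 6947 in SCR, and 8194 and 7795 in WT, with each G2 library below each of the others (log2 fold change -1.39, SE 0.04, adjusted p = 4.6e-11, limma). The lineage factors HAND2 (-0.64) and PHOX2A (-0.76) were lower by smaller folds. GATA3 (0.37) did not pass the fold threshold. MYCN, which is amplified in other neuroblastomas, was higher in G2 (374, 353 and 346 in G2, 224, 178 and 231 in SCR, and 237 and 203 in WT).

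Genes that make, store and recapture noradrenaline followed the same direction. Of 16 genes of catecholamine handling, 8 were lower and 2 higher, with a median of -0.55. DBH, the enzyme that turns dopamine into noradrenaline, had 14907, 15601 and 15194 normalized counts in G2, 52715, 49293 and 50708 in SCR, and 63064 and 59225 in WT (log2 fold change -1.74, SE 0.04, adjusted p = 2.4e-12, limma). The noradrenaline transporter SLC6A2 had 7151, 7375 and 6992 in G2, 20597, 20569 and 21861 in SCR, and 20302 and 22470 in WT (log2 fold change -1.55, SE 0.04, adjusted p = 1.3e-11). In both genes SCR and WT lay together and G2 stood below them. MAOB, which breaks catecholamines down, was among the higher members (2.22). TH, the first enzyme of the pathway, was at 26.5 normalized counts or less in every library and at the floor in 4, so this defining marker of noradrenergic cells was nearly absent. The other markers of the line, among them PHOX2A, ELAVL4 and STMN2, were above the floor in all 8 libraries.

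Among 15 dense-core granule proteins, 7 were lower and 4 higher, so the granule cargo did not move as a block. Chromogranin A (CHGA) had 3311, 2818 and 3172 normalized counts in G2, 25507, 24737 and 28146 in SCR, and 35595 and 31295 in WT, 8.43-fold lower in G2 than in SCR by the means. CHGB fell too (-0.87). Neuropeptide Y (NPY) went the other way, with 328310, 348570 and 377530 normalized counts in G2, 110080, 103900 and 101660 in SCR, and 188060 and 134950 in WT, and PAM, the enzyme that amidates peptide hormones, rose 7.15-fold.

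Transcription factors of the mesenchymal state were higher, 13 of 22 against 2 lower (median 1.16). TBX18, a T-box factor of mesenchymal progenitors, had 383, 379 and 329 normalized counts in G2, 4.08, 8.45 and 3.78 in SCR, and 4.97 and 2.98 in WT. Its SCR libraries were at the floor of 9 recovered counts, which makes G2 at least 44.6-fold higher. PRRX1, a homeobox factor of limb and head mesenchyme, was at 0 in all SCR and WT libraries and had 20.7, 48.2 and 22.6 in G2, at least 3.74-fold higher. SNAI2 (1.31) and FOSL1 (1.27) rose less, and TWIST1 (-0.39) did not pass. Of 16 neural crest and Schwann cell precursor genes, 8 were higher and 4 lower, and of the 8 with a mean of at least 100, 3 were higher and 4 lower. SOX9, which neural crest cells need, had 3384, 3110 and 3413 normalized counts in G2, 300, 330 and 271 in SCR, and 113 and 84.4 in WT, while SOX10, the factor that defines the Schwann lineage, was at the floor in all 6 libraries. MSX1 was lower in G2 (20.7, 15.3 and 34.4 in G2, 319, 316 and 262 in SCR, and 26.1 and 2.98 in WT), but here WT lay with G2, and SCR was the line that stood apart.

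Markers of other cell types were summed in each library. The 12 fibroblast markers added up to between 87536 and 88424 normalized counts in G2, 23307 and 23677 in SCR and 23533 and 25721 in WT, and 7 of the 10 tested were higher in G2 and 1 lower. Each of the other lists also summed higher in every G2 library than in any SCR library, but not all of their tested members rose. Endothelial markers summed to 2251 to 2646 in G2, 1351 to 1491 in SCR and 1756 to 2133 in WT. Of 5 tested, 2 were higher and 0 lower. Epithelial markers summed to 1128 to 1248, 664 to 845 and 587 to 721, with 2 of 9 higher and 2 lower. Leukocyte markers summed to 928 to 1005, 664 to 766 and 524 to 656, with 1 of 4 higher and 1 lower. Schwann cell markers summed to 8600 to 9035, 6137 to 7167 and 6449 to 6649, with 2 of 6 higher and 1 lower. The defining endothelial genes PECAM1 and CDH5 and the leukocyte genes PTPRC and CD3E were at the floor in the G2 and SCR libraries, as was KRT5 of epithelia. The part of the fibroblast markers in the results on mesenchymal, actin, integrin and growth factor genes was not tested.

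Ligands for receptor tyrosine kinases were among the genes that changed most. HGF, the ligand of the MET receptor, had 7227, 7031 and 7030 normalized counts in G2, 193, 169 and 166 in SCR, and 6.21 and 2.98 in WT, 40.4-fold higher in G2 than in SCR, and SCR was itself above WT. HBEGF, a ligand of the EGF receptor, had 2077, 1990 and 2050 in G2, 76.5, 119 and 125 in SCR, and 65.8 and 75.5 in WT (log2 fold change 4.27, SE 0.15, adjusted p = 2.3e-10, limma), with SCR and WT close together. EGFR itself had 2635, 2685 and 2621 in G2, 2843, 2652 and 2548 in SCR, and 2268 and 3642 in WT and did not pass. Over the list of EGF, PDGF, MET and AXL receptors and ligands, 8 of 18 members were higher and 3 lower.

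Of 21 FGF ligands, receptors and feedback genes, 13 were higher and 0 lower (median 0.93), and WT was nearer to SCR in all 13. FGFR1 had 5685, 5790 and 5853 normalized counts in G2, 1637, 1485 and 1526 in SCR, and 1640 and 1633 in WT. SPRY1, a feedback inhibitor of FGF signalling, had 14254, 13783 and 14103 in G2, 1672, 1439 and 1487 in SCR, and 1949 and 1808 in WT (log2 fold change 3.20, SE 0.06, adjusted p = 6.5e-13, limma). FGFRL1, an FGF receptor without a kinase domain, rose from at most 9.07 normalized counts in an SCR library to at least 189 in a G2 library. FGF2 (0.20) and ETV4 (0.56), a target of this pathway, did not pass. With all libraries scaled to the same total 12 members were higher and 1 lower.

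Neurotrophin, GDNF and ALK genes went both ways, 9 of 17 higher and 6 lower. The ligand pleiotrophin (PTN) had 276680, 267450 and 264150 normalized counts in G2, 25661, 26064 and 27098 in SCR, and 12508 and 12495 in WT (log2 fold change 3.36, SE 0.03, adjusted p = 1.1e-14, limma). The anaplastic lymphoma kinase ALK, a driver of neuroblastoma, had 1600, 1663 and 1611 in G2, 6330, 5925 and 5847 in SCR, and 4835 and 5357 in WT. RET, the receptor of GDNF family ligands, had 6010, 6276 and 6060 in G2, 11138, 10321 and 11160 in SCR, and 12097 and 13603 in WT. Both kinases were lower in every G2 library than in any other. NTRK2, the BDNF receptor, was expressed at a low level in all lines, with 28.2, 53.7 and 37.6 in G2, 39.8, 50.7 and 61.2 in SCR, and 21.1 and 35.7 in WT, and its difference did not pass (log2 fold change -0.36, SE 0.30, adjusted p = 0.33). Its groups overlapped, and a change of its splice variants cannot be read from 1 value per gene.

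FLT1, the VEGF receptor 1, had one of the largest rises, with 3915, 4130 and 4020 normalized counts in G2, 13.3, 27.2 and 11.3 in SCR, and 14.9 and 4.96 in WT, and its co-receptor NRP1 rose as well (3.03). VEGFA (0.17) and the main signalling receptor KDR (-0.39) did not pass, and the co-receptor NRP2 was lower (-0.65), but missed the fold threshold without G2 replicate 2 or SCR replicate 3 (both -0.56). Over the VEGF and angiopoietin list, 4 of 11 members were higher and 2 lower. Among 12 insulin and IGF genes 6 were higher and 0 lower, among them the binding proteins IGFBP3 (2.52) and IGFBP6 (1.88), while the receptor IGF1R (0.13) did not pass.

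Ligands of the TGF-β family were among the higher genes. Of 38 TGF-β and BMP genes, 22 were higher and 5 lower (median 1.28). TGFB1 had 2252, 2520 and 2298 normalized counts in G2, 144, 116 and 131 in SCR, and 231 and 189 in WT, 18.1-fold higher in G2, and the activin subunit INHBA had 3858, 3672 and 3730 in G2, 839, 700 and 611 in SCR, and 623 and 775 in WT. Among BMP genes, BMP7 (-0.91) and the receptor BMPR1B (-1.13) were lower, BMP2 (1.43), named after its values were seen, was higher, and the BMP target ID1 (-0.04) and the inhibitor SMAD7 (0.25) did not pass.

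Of 23 genes of the Hippo pathway and its YAP, TAZ and TEAD effectors, 15 were higher and 0 lower (median 1.33), and 22 of 23 lay above 0. YAP1, the co-activator, had 1653, 1868 and 1642 normalized counts in G2, 203, 251 and 206 in SCR, and 23.6 and 37.7 in WT. The secreted target CCN1 had 3368, 3038 and 2651 in G2, 395, 371 and 457 in SCR, and 160 and 128 in WT (log2 fold change 2.88, SE 0.10, adjusted p = 1.4e-10, limma), and AMOTL2 and PTPN14, which are targets that also restrain YAP, rose 3.16-fold and 9.27-fold. For YAP1 and CCN1, SCR lay between WT and G2, and the log2 difference of SCR over WT was 2.83 and 1.5.

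Receptors and targets of Notch were among the higher genes. NOTCH1 had 1148, 1247 and 1300 normalized counts in G2, 350, 221 and 218 in SCR, and 137 and 97.3 in WT. Its target HEY1 had 17229, 16150 and 16695 in G2, 4758, 4775 and 4240 in SCR, and 1924 and 1752 in WT. HES1 rose 2.43-fold, and the ligands DLL1 (0.04) and JAG1 (0.25) did not pass. Over the list, 8 of 22 were higher and 2 lower, among them DLK1 (-0.81). In the Wnt list 15 of 40 were higher and 5 lower. The Wnt antagonists DKK1 (137520, 134030 and 132140 in G2, 64733, 66944 and 65629 in SCR, and 64567 and 60533 in WT) and DKK2 (2.57) rose, as did the ligands WNT5A (2.66) and WNT11 (2.44). AXIN2, a target that reports canonical Wnt activity, fell (-0.63), as did NKD1 (-1.32). LGR5 (1.27) and NOTUM (0.99), named after their values were seen, rose, and Wnt activity itself was not tested. Of 22 hedgehog and retinoic acid genes 8 were higher and 3 lower. The hedgehog effectors GLI1 (2.43) and GLI2 (1.49) rose, while the receptor PTCH1 (-1.11), itself a hedgehog target, and the retinoic acid binding protein CRABP2 (-1.25) fell.

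Immediate early genes were mostly higher, 10 of 18 against 2 lower. EGR1 had 4811, 4659 and 4759 normalized counts in G2, 749, 753 and 688 in SCR, and 539 and 447 in WT. FOS had 274, 292 and 287 in G2, 76.5, 52.6 and 70.3 in SCR, and 33.5 and 35.7 in WT. MYC went against them, with 2244, 2478 and 2506 in G2, 9590, 9210 and 9052 in SCR, and 7608 and 7564 in WT (log2 fold change -1.95, SE 0.05, adjusted p = 1.7e-11, limma), 3.85-fold lower in G2 than in SCR, and WT lay with SCR. JUN (0.31) did not pass.

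Cytokine and NF-κB genes were the list with the largest share of higher members, 20 of 25 (80.0%) with 0 lower and a median of 1.08. TNFRSF1A, the main receptor of TNF, had 1609, 1750 and 1671 normalized counts in G2, 89.8, 46 and 83.9 in SCR, and 8.69 and 5.96 in WT. TNFRSF12A, the receptor of TWEAK, had 11961, 12910 and 13793 in G2, 1096, 977 and 1026 in SCR, and 781 and 579 in WT. Both receptors were lowest in WT, higher in SCR and highest in G2, and for TNFRSF1A the SCR line stood well above WT. The chemokine CCL2 had 4538, 5044 and 4694 in G2, 969, 974 and 849 in SCR, and 215 and 111 in WT. The receptor of LIF, LIFR, had 2048, 2048 and 1947 in G2, 380, 382 and 342 in SCR, and 176 and 246 in WT. In these genes all G2 libraries lay above all SCR libraries, as in 32.0% of all tested genes, and WT was at or below SCR. LIF (0.24) and the shared receptor chain IL6ST (0.45) did not pass, and NFKBIA, the inhibitor that NF-κB induces, was higher in G2 than in SCR but not than in WT (1262, 1446 and 1418 in G2, 880, 833 and 952 in SCR, and 1530 and 1427 in WT). The call of NFKBIA was lost with the total scaling (0.54) and without SCR replicate 2 (0.58).

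Interferon-stimulated and MHC class I genes were higher in 24 of 38 members with 0 lower (median 1.28), and WT was nearer to SCR for 23 of the 24. Of the 24, 17 had a mean of at least 100 normalized counts. B2M, the light chain of MHC class I, had 66729, 66483 and 64534 normalized counts in G2, 19976, 19089 and 19256 in SCR, and 27347 and 23488 in WT (log2 fold change 1.76, SE 0.03, adjusted p = 1.3e-12, limma). CD274, the checkpoint ligand PD-L1, had 651, 690 and 596 in G2, 30.6, 20.6 and 28 in SCR, and 16.1 and 17.9 in WT, 24.5-fold higher in G2. ERAP2, an aminopeptidase that trims peptides for MHC class I, had 419, 387 and 423 in G2, 11.2, 9.38 and 5.29 in SCR, and 0 and 17.9 in WT. The heavy chain HLA-B was nearly silent in every library (11.3, 41.6 and 33.3 in G2, 14.3, 16.9 and 24.2 in SCR, and 19.9 and 32.8 in WT). ISG15 (1.26) did not pass, and its values overlapped, from 1.88 to 27.6 in SCR and from 15.1 to 43.8 in G2. The list therefore held members at their SCR level beside those that rose. The immunoproteasome subunits PSMB8 (231, 272 and 233 in G2, 57.2, 37.5 and 43.1 in SCR, and 27.3 and 12.9 in WT) and PSMB9 were the only DE members among 37 proteasome subunits, and PSMB9, named here after its values were seen, was at 0 in all SCR libraries.

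The promoters of these genes were read for the interferon element that STAT and IRF factors bind, because the list is defined by that response. The letters GAAANNGAAA, on either strand, occur in the 250 bases before the RefSeq start of 839 of 27305 genes (3.07%), of 18 of the 30 tested members with a promoter sequence (60%) and of 11 of the 20 that were higher (55.0%). B2M and TAP1, chosen with their values known, are shown because both rose and hold it, B2M on the plus strand at chr15:44711267-44711516 and TAP1, a peptide transporter subunit, on the minus strand at chr6:32853705-32853954 of GRCh38.p14. Capitals mark the matches, which overlap in both genes, and the last base is the one before the start.
B2M: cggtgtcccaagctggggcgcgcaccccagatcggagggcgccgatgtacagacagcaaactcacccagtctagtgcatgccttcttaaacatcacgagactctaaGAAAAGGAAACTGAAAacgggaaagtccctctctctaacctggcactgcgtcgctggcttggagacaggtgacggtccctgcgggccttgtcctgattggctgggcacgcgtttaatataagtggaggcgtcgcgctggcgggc
TAP1: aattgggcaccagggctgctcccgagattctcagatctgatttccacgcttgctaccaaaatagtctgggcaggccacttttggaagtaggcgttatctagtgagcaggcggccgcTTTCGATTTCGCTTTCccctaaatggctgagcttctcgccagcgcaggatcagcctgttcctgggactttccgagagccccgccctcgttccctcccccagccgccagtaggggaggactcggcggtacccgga
The outer match begins 144 bases before the start of B2M and 134 bases before that of TAP1. TAP1 had 168, 247 and 206 normalized counts in G2, 18.4, 26.3 and 28 in SCR, and 4.97 and 9.93 in WT (log2 fold change 3.05, SE 0.23, adjusted p = 2.5e-07, limma). Among all tested genes with a promoter, 274 of 12091 (2.27%) hold a match. A match describes these letters and is not evidence of binding.

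**Figure D2:**
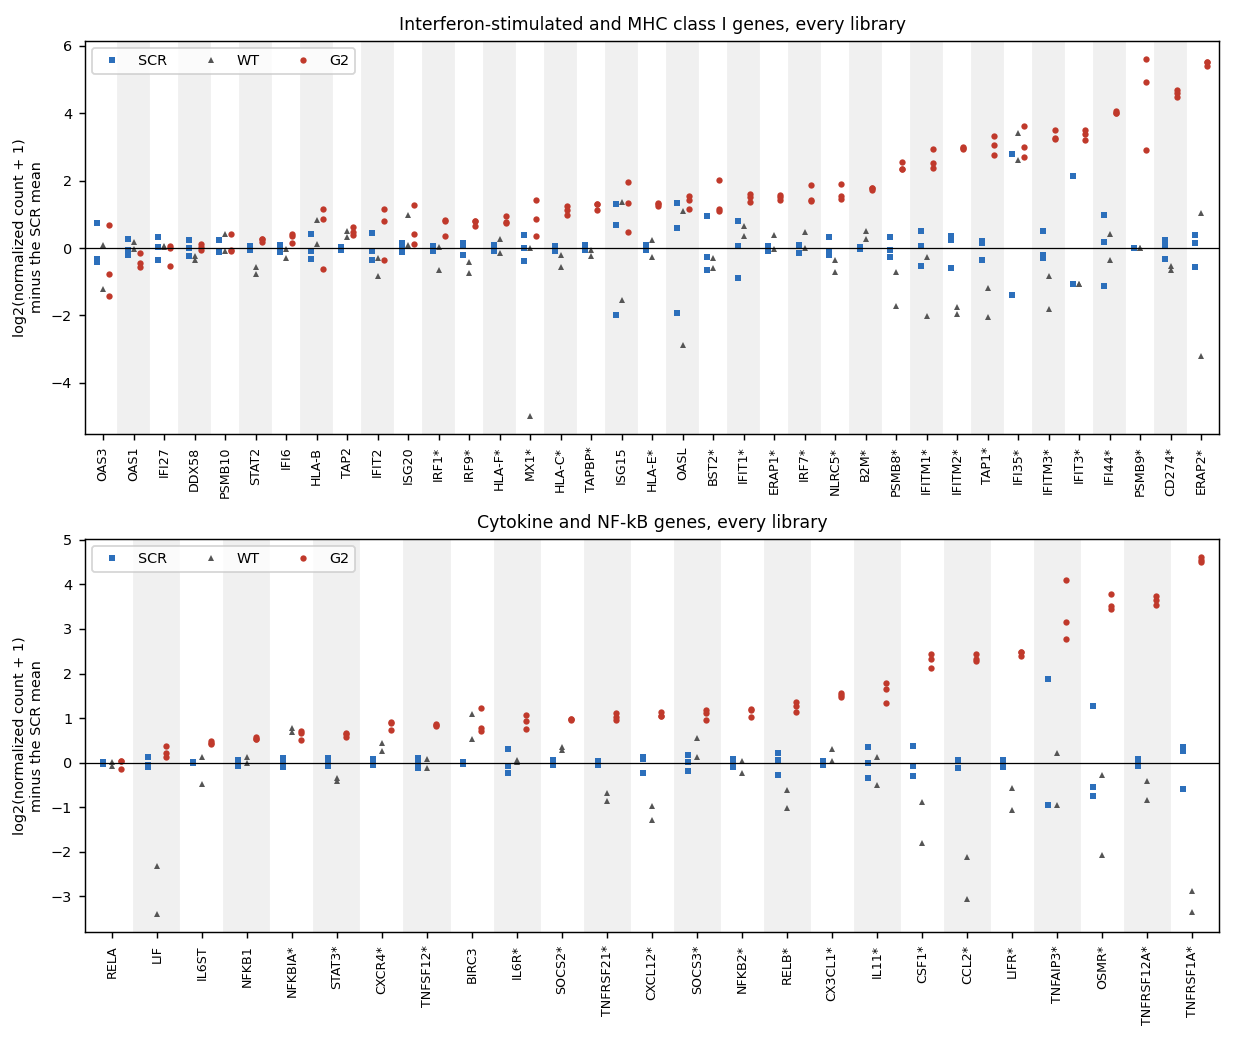
Every library of members of the interferon and MHC class I list (top) and the cytokine and NF-κB list (bottom), as log2(normalized count + 1) minus the mean of the SCR libraries, with members ordered by their G2/SCR fold change and an asterisk on DE genes. G2 circles rise to 5.47 on average for ERAP2 and 4.56 for TNFRSF1A, while WT triangles lie nearer to SCR for 23 of the 24 higher members at the top and 19 of the 20 at the bottom, and low genes such as ISG15 scatter within each line.

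Chaperones and folding enzymes of the endoplasmic reticulum were higher in G2, 16 of 25 members of the unfolded protein response list with 0 lower (median 0.85). The rises were moderate and tight between libraries. HSPA5, the chaperone BiP, had 33899, 40238 and 39640 normalized counts in G2, 20621, 20639 and 19870 in SCR, and 33765 and 31833 in WT (log2 fold change 0.89, SE 0.06, adjusted p = 4.5e-08, limma). The disulfide isomerase PDIA4 had 36941, 39232 and 39363 in G2, 11622, 11885 and 11590 in SCR, and 16622 and 16262 in WT. EIF2AK3, the stress sensor PERK, had 5848, 5650 and 5477 in G2, 1481, 1485 and 1409 in SCR, and 1531 and 1598 in WT. WT was nearer to G2 than to SCR for 10 of the 16, HSPA5 among them. This reading depends on the scaling, since under the total scaling WT was nearer to G2 for 4 of the 16, while 15 members were still called higher. EIF2AK3 and EDEM1 (2233, 2236 and 2145 in G2, 748, 818 and 766 in SCR, and 554 and 709 in WT) were higher in G2 than in both of the others. Of 22 targets of ATF4, an arm that PERK feeds, 4 were higher and 2 lower, and 4 were higher and 4 lower under the total scaling. DDIT3 (0.81), the stress factor CHOP, and CEBPB (1.06) were among the higher. ATF4 (0.06), ASNS (-0.41) and TRIB3 (-0.06) did not pass.

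The endoplasmic reticulum stress element, searched as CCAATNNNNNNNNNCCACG on either strand of the 250 bases before the start, is rare among all promoters (22 of 27305, 0.0806%). Among tested genes with a promoter it occurs in 15 of 12091 (0.124%). It occurs in 6 of 24 promoters of the tested list members (25.0%), of which 5 were higher in G2, beside 15 higher among all 24. These shares describe the list, are no test of the difference between the lines, and a match is not evidence of binding. These were CALR, CRELD2, HSP90B1, HSPA5 and XBP1, named for their promoters. CANX, the other, was not DE (0.41). HSPA5, on the minus strand at chr9:125241344-125241593, and HSP90B1, on the plus strand at chr12:103930160-103930409 of GRCh38.p14, are shown with the matches in capitals.
HSPA5: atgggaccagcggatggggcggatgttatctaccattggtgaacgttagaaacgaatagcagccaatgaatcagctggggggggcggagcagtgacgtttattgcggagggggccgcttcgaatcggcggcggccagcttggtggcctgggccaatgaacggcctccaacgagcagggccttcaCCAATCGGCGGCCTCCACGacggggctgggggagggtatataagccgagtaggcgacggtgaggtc
HSP90B1: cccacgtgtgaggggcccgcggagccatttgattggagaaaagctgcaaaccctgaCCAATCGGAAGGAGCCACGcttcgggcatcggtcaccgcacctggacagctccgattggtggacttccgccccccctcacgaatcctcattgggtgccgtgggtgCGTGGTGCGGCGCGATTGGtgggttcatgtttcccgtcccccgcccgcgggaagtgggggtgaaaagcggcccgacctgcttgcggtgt
The match begins 66 bases before the start of HSPA5, and the matches of HSP90B1, the chaperone GRP94, begin 194 and 89 bases before its start. HSP90B1 had 91762, 94602 and 92129 normalized counts in G2, 45803, 47506 and 47671 in SCR, and 69861 and 69620 in WT (log2 fold change 0.98, SE 0.03, adjusted p = 8.6e-11, limma).

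Targets of p53 were lower in G2 than in SCR, 12 of 28 against 4 higher (median -0.48). CDKN1A, the cell-cycle inhibitor p21, had 11489, 12873 and 13793 normalized counts in G2, 23053, 22684 and 22161 in SCR, and 4580 and 4019 in WT (log2 fold change -0.84, SE 0.06, adjusted p = 7.9e-08, limma). BBC3, which encodes the apoptosis inducer PUMA, had 945, 1051 and 1299 in G2, 3702, 3426 and 3455 in SCR, and 1336 and 1137 in WT. SESN1, a stress sensor that restrains mTORC1, had 722, 791 and 789 in G2, 1952, 1923 and 1898 in SCR, and 895 and 849 in WT. For 11 of the 12 lower targets WT was nearer to G2 than to SCR, and 12 of 12 were so with all libraries scaled to the same total. In BBC3 and SESN1 the WT libraries lay at the G2 level, and in CDKN1A they lay below it. MDM2 did not reach the fold threshold (log2 fold change -0.53, SE 0.06, adjusted p = 1.3e-05), which it passed with the total scaling (-0.62). The host gene of miR-34a, MIR34AHG, a further p53 target, had 86.6, 86.5 and 99.9 in G2, 311, 361 and 466 in SCR, and 53.4 and 51.6 in WT. The 4 higher members included PLK2, with 10997, 10648 and 10650 in G2, 2213, 2312 and 2406 in SCR, and 1067 and 1107 in WT, where G2 stood above SCR and SCR above WT. CDKN2A, which encodes p16 and ARF and is not a p53 target, had 870, 1102 and 984 in G2, 3889, 3445 and 3022 in SCR, and 1080 and 663 in WT and again separated SCR from the other two lines.

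**Figure D3:**
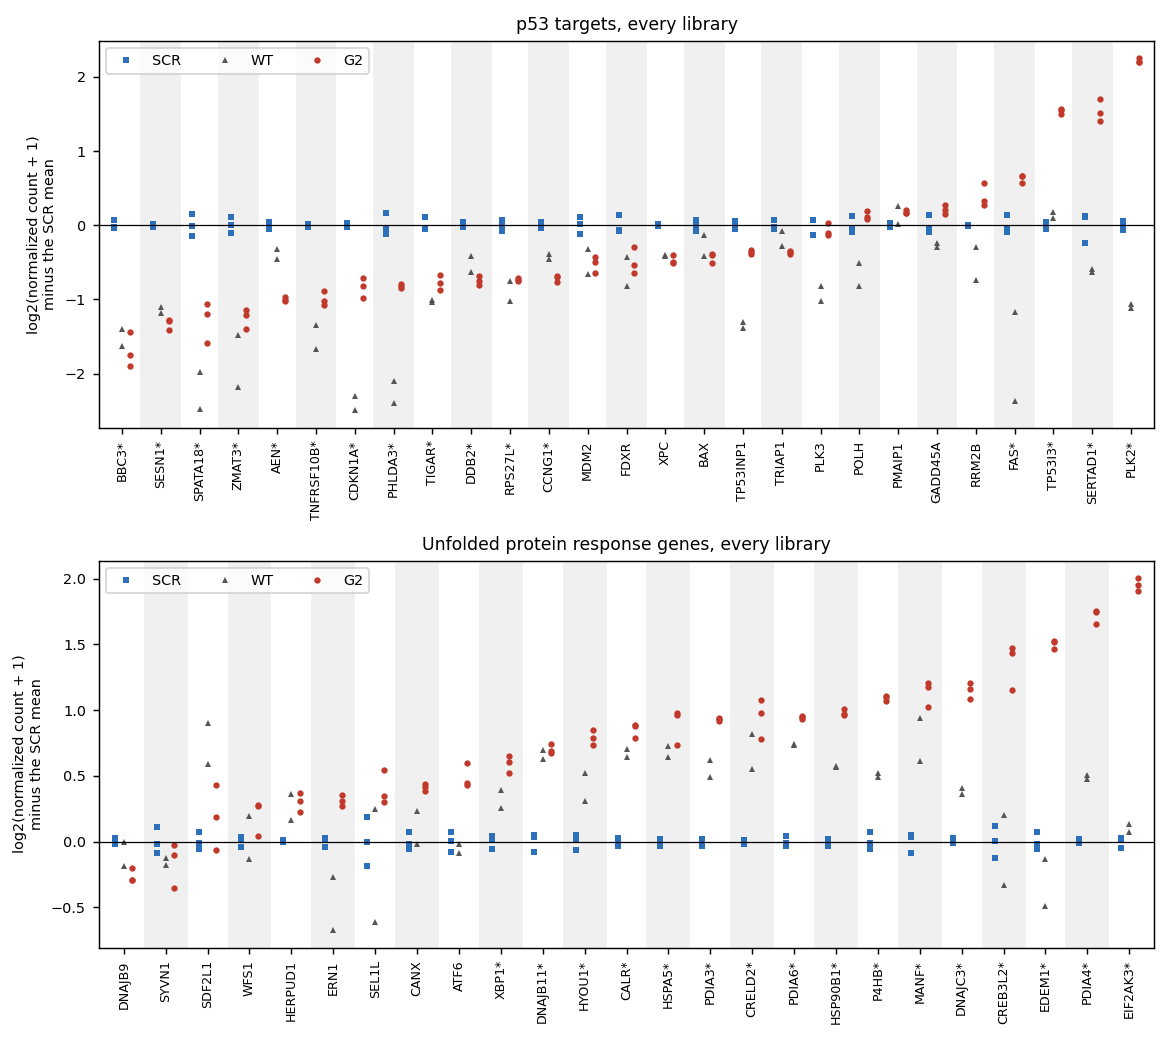
Every library of p53 targets (top) and unfolded protein response genes (bottom), as log2(normalized count + 1) minus the mean of the SCR libraries, ordered by the G2/SCR fold change, with an asterisk on DE genes. Among the 12 lower p53 targets the WT triangles lie nearer to the G2 circles in all but AEN, and among the 16 higher genes of the bottom panel they lie nearer to G2 in 10.

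In the NRF2 list 6 of 30 were higher and 0 lower, with NQO1 at 9180, 8853 and 9556 normalized counts in G2, 2110, 1949 and 2298 in SCR, and 2158 and 1941 in WT and the cystine transporter SLC7A11 at 191, 194 and 204 in G2, 26.5, 33.8 and 33.3 in SCR, and 42.2 and 102 in WT, and HMOX1 (0.13) did not pass. In the heat shock list HSPB8 rose 7.92-fold, while HSP90AA1 (-0.23) and HSPA1A (0.05) did not pass. Among 19 hypoxia genes 7 were higher and 3 lower. EPAS1, the factor HIF-2α, had 1322, 1283 and 1357 normalized counts in G2, 5327, 4975 and 4770 in SCR, and 1504 and 1678 in WT, which placed WT with G2, and ADM was lower (-1.56) where P4HA1, a collagen hydroxylase, was higher (1.64). Lysosomal genes were higher in 11 of 33 with 0 lower, as for the protease CTSB (1.06) and the membrane protein LAMP1 (0.94). CTSD (0.48) did not pass. Of 14 BCL2 family genes 2 were higher and 3 lower, with BOK (-1.03), BID (-0.84) and BMF (-0.65), which promote cell death, as the lower members and the survival genes BCL2 (0.31) and MCL1 (0.32) not DE. The higher members, BAK1 (0.69) and HRK (2.79), the latter named after its values were seen, promote cell death as well. BMF missed the fold threshold without G2 replicate 3 (-0.56) and without SCR replicate 3 (-0.58). WT was nearer to G2 than to SCR for BOK, BMF and HRK.

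Adhesion receptors were mostly higher. Of 18 integrin subunits, 13 were higher and 0 lower (median 1.78). ITGA2, a collagen receptor chain, had 6811, 7296 and 6962 normalized counts in G2, 423, 400 and 426 in SCR, and 227 and 283 in WT (log2 fold change 4.07, SE 0.06, adjusted p = 9.5e-14, limma). The fibronectin receptor chain ITGA5 had 589, 555 and 522 in G2, 64.3, 46.9 and 34 in SCR, and 3.72 and 16.9 in WT. Of 25 protocadherins, 12 were higher and 1 lower. PCDH7 had 2224, 2454 and 2404 in G2, 121, 118 and 130 in SCR, and 73.3 and 49.6 in WT. PCDH20 had 959, 1071 and 1016 in G2, 59.2, 98.5 and 48.4 in SCR, and 83.2 and 88.4 in WT, while PCDH1 (-2.43) fell. Clustered protocadherins share near-identical exons, and how reads in them were divided is not given in the sources used here. Of 32 cadherins, claudins and nectins 15 were higher and 1 lower. N-cadherin (CDH2) had 49944, 51086 and 48874 normalized counts in G2, 13644, 14031 and 12887 in SCR, and 11052 and 11628 in WT, and E-cadherin (CDH1) did not pass (-0.13).

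The genes of axon guidance went both ways, 24 of 65 higher and 12 lower. SEMA3A, a secreted repellent, had 3123, 2917 and 2825 normalized counts in G2, 134, 126 and 122 in SCR, and 77 and 65.5 in WT. SLIT2, the ligand of ROBO receptors, had 1497, 1535 and 1479 in G2, 156, 144 and 143 in SCR, and 101 and 130 in WT. Receptors were among the lower genes: the netrin receptor UNC5A had 58.3, 58 and 53.7 in G2, 455, 403 and 499 in SCR, and 777 and 757 in WT, with WT above SCR, and ROBO2 had 255, 280 and 275 in G2, 1044, 1158 and 976 in SCR, and 196 and 287 in WT, with WT at the level of G2.

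Of 62 potassium channels, 26 were lower and 10 higher (median -0.30). KCNQ3, a subunit of the M-current channel, had 45.2, 65.7 and 41.9 normalized counts in G2, 209, 239 and 209 in SCR, and 212 and 220 in WT, and the inward rectifier KCNJ2 rose from 20.4, 27.2 and 26.5 in SCR to 429, 395 and 432 in G2. Many of these channels were weakly expressed: 15 of the 26 lower members had a mean of at least 100. Sodium and calcium channels were split, 13 of 43 higher and 14 lower, with the nociceptor sodium channel SCN9A at 4156, 4330 and 4081 in G2, 619, 619 and 555 in SCR, and 163 and 286 in WT and CACNG2, a subunit that escorts AMPA receptors, at 140, 157 and 257 in G2, 1002, 944 and 864 in SCR, and 757 and 770 in WT. Of 60 neurotransmitter receptors 17 were higher and 19 lower. GRIN1, the obligate NMDA receptor subunit, had 183, 187 and 192 in G2, 1311, 1206 and 1377 in SCR, and 1481 and 1384 in WT. The serotonin receptor HTR4 had 469, 496 and 453 in G2, 5.10, 13.1 and 4.53 in SCR, and 0 and 0 in WT. The nicotinic subunit CHRNA9 (3.31) and the adrenergic receptor ADRA2A (3.44) rose too.

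Solute carriers stayed near the background, with 45 of 249 higher and 36 lower, an order that turned to 36 and 42 with all libraries scaled to the same total. The arginine transporter SLC7A2 rose 7.94-fold, and the sodium-calcium exchanger SLC8A3 had 1202, 1180 and 1230 normalized counts in G2, 4750, 4790 and 4664 in SCR, and 6378 and 7341 in WT. The manganese exporter SLC30A10 had 33.9, 33.9 and 34.4 in G2, 379, 287 and 317 in SCR, and 75.7 and 111 in WT. ABC transporters were lower in 7 of 31, with WT nearer to G2 for 5 of the 7, and higher in 3. ABCC3, a bile salt and drug exporter, was among the higher, with 500, 477 and 464 in G2, 14.3, 18.8 and 21.9 in SCR, and 7.45 and 5.96 in WT. 

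The actin cytoskeleton and the neuronal cytoskeleton moved apart. Of 33 actin contractile genes, 24 were higher and 1 lower (median 0.93). Tropomyosin 1 (TPM1) had 34561, 33995 and 33080 normalized counts in G2, 7228, 7368 and 6976 in SCR, and 6545 and 6655 in WT. The focal adhesion protein zyxin (ZYX) had 15831, 17406 and 17596 in G2, 4476, 4230 and 4198 in SCR, and 4940 and 4075 in WT. Of 38 neuronal cytoskeleton and outgrowth genes, 15 were lower and 6 higher (median -0.32). The neurofilament chain NEFM had 7670, 7884 and 7912 in G2, 32590, 34319 and 33771 in SCR, and 21941 and 23631 in WT, and MAPT (-0.27) and TUBB3 (-0.52) did not pass, although TUBB3 was called lower with the total scaling (-0.61). GAP43, a growth cone protein, and vimentin (VIM) were among the higher members, with 32129, 33234 and 32270 in G2, 4487, 4402 and 4009 in SCR, and 5118 and 4465 in WT for GAP43 and 2.52-fold for VIM. Annexins, S100 proteins and related genes had 16 of 21 members higher and 0 lower (median 2.05): S100A16 had 15728, 16453 and 15926 in G2, 413, 419 and 298 in SCR, and 277 and 242 in WT. S100A10, the partner of annexin A2, had 842, 843 and 842 in G2, 27.6, 50.7 and 48.4 in SCR, and 17.4 and 11.9 in WT. 

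**Figure D4:**
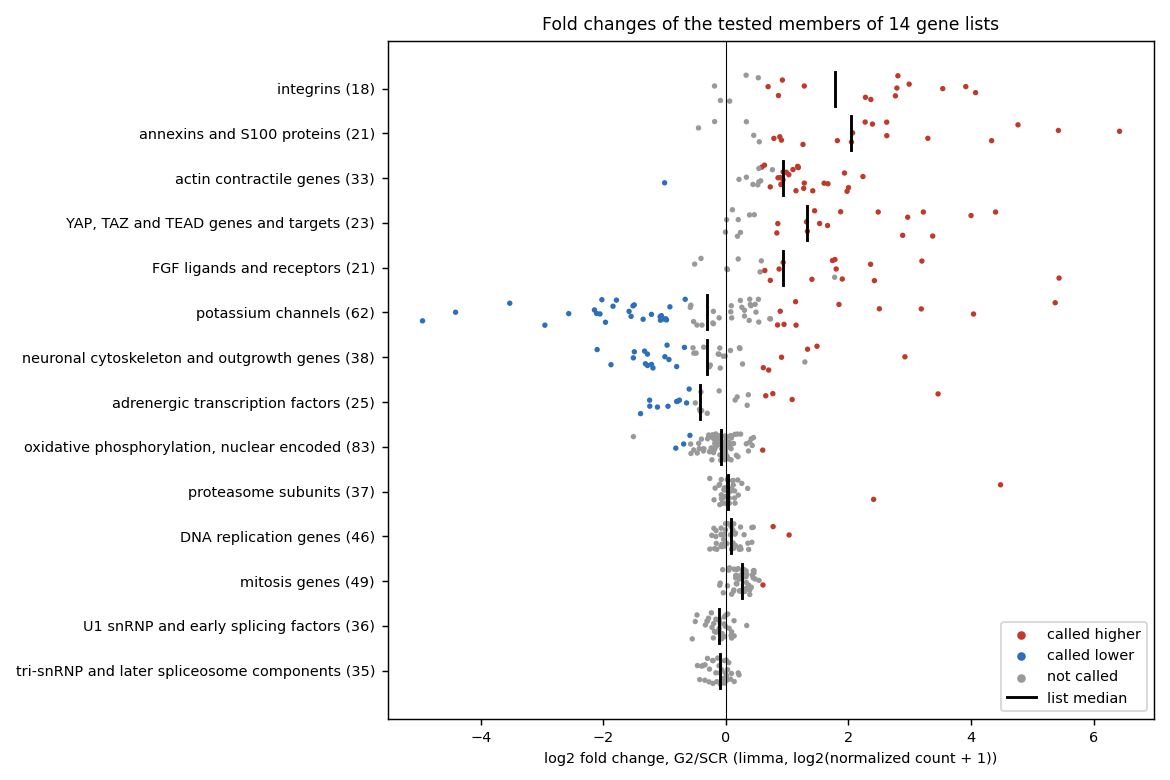
Log2 fold change in G2/SCR of each tested member of 14 gene lists, coloured by call, with the list median as a black bar. Adhesion, annexin and S100, actin, YAP and FGF lists spread to the right with medians from 0.93 to 2.05, potassium channel, neuronal cytoskeleton and adrenergic lists lean to the left, and replication, mitosis, proteasome and core spliceosome lists gather near 0, apart from the 2 immunoproteasome subunits on the right.

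Core metabolism changed in few genes. Of 83 nuclear-encoded genes of oxidative phosphorylation, 1 was higher and 3 lower (4.82% DE, against 26.1% of all genes), and with all libraries scaled to the same total these were 0 and 6. Of 25 genes of serine, one-carbon and nucleotide synthesis none was DE, the fold changes ran from -0.58 to 0.45 on the log2 scale, and 1 was called lower with the total scaling. In glycolysis and glucose transport 4 of 26 were lower and 2 higher, with the glucose transporter SLC2A1 at 2090, 2109 and 2122 normalized counts in G2, 4125, 3651 and 3823 in SCR, and 4081 and 3980 in WT and GAPDH (-0.08) and LDHA (0.12) not DE. In cholesterol synthesis and uptake 4 of 28 were higher and 0 lower. SQLE, an enzyme of the pathway, did not pass (0.58). SQLE lay at the fold threshold and was called with edgeR (0.59) and without G2 replicate 3 (0.63), SCR replicate 2 (0.60) or SCR replicate 3 (0.59).

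Genes of cell division were near their SCR level. Of 46 DNA replication genes 2 were higher and 0 lower, and of 49 mitosis genes 1 was higher and 0 lower. The mitosis genes still leaned one way, with 45 of 49 above 0, a median of 0.27 and the largest at 0.60. MKI67 had 13875, 14236 and 13825 normalized counts in G2, 12773, 11028 and 10623 in SCR, and 14689 and 19643 in WT. CCNB1 had 10497, 10504 and 10183 in G2, 8028, 7762 and 7365 in SCR, and 13236 and 10967 in WT. MCM2 had 9729, 10262 and 9980 in G2, 10301, 10612 and 10718 in SCR, and 19386 and 18757 in WT. In the G2/SCR contrast these differences were under the fold threshold, and for MCM2 both edited lines lay below WT. In all 46 replication genes WT lay nearer to whichever edited line was higher, so this position of WT was not particular to single genes. The called genes MCM4 (9937, 9396 and 9397 in G2, 5574, 5639 and 5624 in SCR, and 9245 and 9758 in WT), E2F7 (1.03) and KIF23 (0.60) had WT at or near the G2 level, and KIF23 was not called with all libraries scaled to the same total (0.51), without G2 replicate 1 (0.58) or without SCR replicate 1 (0.58). Of 20 G1 genes, 7 were higher and 2 lower. Cyclin E2 (CCNE2) had 1411, 1342 and 1307 in G2, 623, 668 and 634 in SCR, and 1259 and 1452 in WT. CDK6 had 9525, 9419 and 9608 in G2, 4846, 4794 and 4031 in SCR, and 11396 and 11832 in WT. The inhibitor CDKN1B, p27, had 14615, 13608 and 14367 in G2, 6772, 6773 and 6977 in SCR, and 9356 and 9667 in WT, so in CCNE2 and CDK6 SCR was below both of the others, and in CDKN1B G2 was above both. Replication-dependent histones, most of whose transcripts lack a poly(A) tail, had 2 of 37 lower, and 9 with the total scaling.

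The core spliceosome, to which PRPF40B belongs, held no DE gene among the listed members, which leave out PRPF40B itself. Of 36 U1 snRNP and early splicing factors and 35 tri-snRNP and later components, none was called by limma. The fold changes ran from -0.55 to 0.34 and from -0.46 to 0.21 on the log2 scale, and with all libraries scaled to the same total 1 early factor was called lower. Of 63 SR, hnRNP and tissue-specific regulators, 7 were higher and 5 lower, with 5 and 6 under the total scaling, a smaller share called, 12 of 63, than the 26.1% over all genes. QKI, a regulator in mesenchymal and glial cells, had 7272, 7430 and 7500 normalized counts in G2, 3296, 3831 and 3056 in SCR, and 3960 and 4397 in WT. CELF2 had 656, 591 and 662 in G2, 99, 126 and 89.2 in SCR, and 29.8 and 48.6 in WT. Both were higher in every G2 library than in any other. SRRM4, which drives neuronal microexon inclusion, had 215, 224 and 291 in G2, 606, 557 and 534 in SCR, and 426 and 528 in WT. CELF4, a neuronal family member, had 910, 1012 and 1123 in G2, 2652, 2702 and 2594 in SCR, and 2778 and 2855 in WT. PTBP1 (0.05), PTBP2 (-0.08) and RBFOX2 (-0.12) did not pass.

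Families of developmental transcription factors changed in both directions. Of 45 SOX, FOX and T-box factors 11 were higher and 11 lower. TBX3 had 1347, 1398 and 1369 normalized counts in G2, 11739, 11655 and 12599 in SCR, and 8058 and 8465 in WT (log2 fold change -3.13, SE 0.05, adjusted p = 1.6e-13, limma), 8.75-fold lower in G2, and SOX2 rose (2.56). Among 12 tested HOX genes 5 were higher and 4 lower, HOXC10 among the higher (1449, 1282 and 1476 in G2, 200, 271 and 278 in SCR, and 445 and 355 in WT), and HOTAIR, the noncoding RNA of the same cluster, was at the floor in SCR and at least 34.5-fold higher in G2. Of 19 imprinted genes 5 were higher and 6 lower, among them IGF2 (1.16) and PHLDA2 (5.63), which rose, and NNAT (-1.15), which fell. MEST had 4164, 4340 and 4084 in G2, 105, 89.2 and 84.6 in SCR, and 27.3 and 27.8 in WT, 45.1-fold higher in G2 than in SCR. 

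Among the 12 largest rises of genes with a mean of at least 100 outside the matrix, synapse and ribosome list, LMO4, a LIM-only co-regulator, had 3265, 3298 and 3252 normalized counts in G2, 81.6, 69.4 and 40.1 in SCR, and 109 and 138 in WT. LAT2, an adaptor of immune receptor signalling, had 576, 704 and 654 in G2, 10.2, 6.57 and 10.6 in SCR, and 45.9 and 46.7 in WT. CGA, the shared subunit of the glycoprotein hormones, had 263 ± 32.5 in G2 and 5.94 ± 10.3 in SCR (SD, n = 3) and 57.4 in WT, so WT expressed it and SCR nearly lacked it. Among the 12 largest falls, the zinc finger gene ZNF662 had 18.8, 16.4 and 17.2 in G2, 461, 583 and 577 in SCR, and 448 and 443 in WT. The phosphatase PPEF1 had 34.8, 23 and 11.8 in G2, 586, 626 and 577 in SCR, and 437 and 446 in WT. LOC105371703, on chromosome 17, was at the floor in G2, at least 27.8-fold lower than in SCR. WT lay nearer to SCR in 10 of the 12 rises and 10 of the 12 falls.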

How the data were processed

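RNA-seq values were taken from the deposited table, which holds normalized counts per gene and library for 8 libraries (3 G2, 3 SCR and 2 WT). Per the labels and the study's methods, the authors made stranded poly(A) libraries, mapped paired reads against hg38 (STAR), summed them per FAST DB gene (featureCounts, Subread 1.5.0) and scaled the counts through DESeq2. The tool versions in the submitters' processing notes include FastQC 0.11.2, Picard 1.119 and SAMtools 1.0, and neither the DESeq2 version nor the strand setting is given in the sources used here. The deposited signal values are therefore counts divided by a factor for each library, and they do not correct for gene length.

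Dividing each library by its smallest step gave whole numbers for 100% of the values within 0.01, with totals of 59804395 to 81080747. Of the recovered counts up to 60, 67.1 to 71.5% were multiples of 3. A recovered count is therefore not a fragment, and the totals overstate the number of fragments. A group was taken to be at the floor where no library had more than 9 recovered counts, which is about 3 fragments. Floors and intervals of this kind cover counting error only.

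Libraries were grouped by the cell line in the labels. Genes averaging 10 or more in the 6 G2 and SCR libraries were tested with limma 3.58.1 (R 4.3.3; lmFit and eBayes with trend) on log2(value + 1), adjusted by Benjamini-Hochberg over 18977 genes, and called at an adjusted p of at most 0.05 and a fold of at least 1.5. This test was planned for the deposited unit. The recovered counts were tested with edgeR 4.0.16 (4899 genes called) and DESeq2 1.42.0 (4783) as alternatives. Both took the recovered counts as they stood, although these exceed the number of fragments. On simulated data the limma test recovered 33.2% of genes changed 1.5-fold, 72.8% at 2-fold and 92.4% at 4-fold. It made a median of 5 false calls. The simulation changed a far smaller share of genes than the 26.1% called in G2/SCR and used the recovered unit, so these shares need not hold for the data. A true 1.5-fold change lies at the fold threshold, and its estimate can fall below it. The libraries of a line differed by more than sampling noise. Chi-square per degree of freedom over genes was 2.22 to 4.73 for pairs of G2 or SCR libraries and 13.5 for the WT pair. The libraries were counted as separate replicates, called biological in their titles, and nothing names separate cultures. A called gene was set nearer to SCR or G2 by the WT mean of log2(value + 1), without a test, and WT comparisons share these libraries.

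The members and gene lists were chosen with earlier results of these data known. Named genes were PRPF40B, marked members of the lists, up to 3 called members in each direction of a list with a mean of at least 100, and the 12 largest rises and falls. Of 16196 tested symbols 15534 matched RefSeq. Promoters were the 250 bases before the RefSeq start (GRCh38.p14), searched on both strands. Also tried were 2 other motifs, named AP-1 and TEAD, which stood in 6.60% and 11.9% of all promoters and in 2 and 3 of 18 promoters of YAP list members. The study's own filter on intergenic expression was not repeated. Genes without a symbol (2781 tested) were kept in the tests and in no list, and mitochondrially encoded genes were not analysed here. Some list members and 1 list are not reported here by name.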

Additional observations from a re-analysis of the deposited data

How the results depend on the processing

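The number of DE genes in G2/SCR (4956) stayed within 1.5 times under pseudocounts of 0.5 (4933) and 5 (4977), no filter (5220), edgeR (4899, of which 4843 were shared), DESeq2 (4783, 4743 shared), a fit with the WT libraries (4772), the unadjusted p (5242) and the total scaling (5123). It ran from 4618 to 4919 when a library was left out, with 2743 to 2838 higher and 1817 to 2145 lower. A mean of at least 100 left 3137 genes, 1154 of them lower, and a fold of at least 2 left 2921, with 1778 higher and 1143 lower, because fewer genes were tested or a larger change was asked for. The total scaling turned the balance to 2515 higher and 2608 lower. PRPF40B was lower under every alternative. WT was nearer to SCR for 3776 of the DE genes and for 3688 to 3769 under the alternatives. 

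With the replicate number as a block, 4958 genes were DE (2864 higher, 2094 lower, 4882 shared). The numbers do not pair the libraries, since deviations of same-numbered G2 and SCR libraries correlated at 0.000498, -0.0214 and 0.0348. No named gene reversed. Of the 1972 list counts under the alternatives, 1848 stayed within 1.5 times of the reported count and 124 did not, 73 of them at the fold of at least 2 or the mean of at least 100. With the total scaling, histones went from 2 to 9 lower members and ZNF genes from 34 to 60. Recovered totals overstate the depth in fragments, and weak genes limit the precision most.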

Other observations

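Of 1277 tested genes that RefSeq lists as long noncoding, 148 were higher and 251 lower (31.2% DE, median log2 fold change -0.23), against 2371 higher and 1326 lower of 13620 protein-coding genes (27.1%, median 0.03). Antisense genes, named after the coding gene they overlap, had 53 of 492 higher and 94 lower, and LINC genes had 49 of 303 higher and 65 lower. The strand setting of the counting is not given in the sources used here, so reads of an antisense gene and its partner may be mixed. DPP10-AS1 had 110, 88.7 and 99.9 normalized counts in G2, 1052, 1093 and 982 in SCR, and 704 and 620 in WT, and ZFPM2-AS1, at the floor in SCR, had 532, 564 and 549 in G2. Of 37 microRNA and snoRNA host genes, 5 were higher and 7 lower. MIR100HG had 777, 705 and 795 in G2, 36.7, 65.7 and 37.8 in SCR, and 12.4 and 15.9 in WT, and GAS5 had 4256, 4196 and 4272 in G2, 7583, 7280 and 7346 in SCR, and 6787 and 5573 in WT. Of 499 zinc finger genes with a ZNF name 24 were higher and 34 lower (11.6% DE, against 26.1% of all genes), with 60 lower under the total scaling.

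DE genes made up from 18.9% of the tested genes of chromosome 16 to 32.1% of those of chromosome 21, apart from chromosome 8. On chromosome 8, 197 of 691 genes were higher and 74 lower (39.2%), and the median log2 fold change was 0.22, against -0.133 to 0.075 on the others. The median of SCR over WT on chromosome 8 was 0.051. Genes named in the report that lie on it include FGFR1, HEY1, SLC7A2, SNAI2, ZFPM2-AS1, CTSB, CCNE2 and MCM4, which were higher, and MYC, KCNQ3 and NEFM, which were lower, as well as SQLE and STMN2, which were not DE, and copy number was not measured here.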
